A study of Mus musculus with 9 samples.

Results

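The mouse miRNAs whose names carry a number from 3000 to 3999 were followed in small RNA libraries of the hippocampus. They were taken by name alone from the deposited table, and they made up 121 of its 1448 mature miRNA rows and came from 75 of its 866 hairpins. The 708 rows numbered under 1000 served as the reference. The libraries came from adult male C57BL/6J mice, and each of the 3 groups had 3 libraries. The saline group received 0.9% saline. The LPS group received 0.12% saline and a single intraperitoneal dose of 1 mg/kg lipopolysaccharide (LPS), a bacterial cell wall component that sets off systemic and brain inflammation. The LPS + GAS group received the same LPS dose and, 1 h later, 100 mg/kg of gastrodin (GAS), a phenolic glucoside from the orchid Gastrodia elata. The sources differ on this timing: the labels place GAS after LPS, and other passages describe it as given with LPS or before it. LPS is thus shared by the LPS and LPS + GAS groups, and the LPS group is the control for GAS. The brains were taken after behaviour tests, but neither an age in weeks nor the exact time from injection to dissection is given for these libraries in the sources used here, nor whether each library came from 1 mouse, so p-values measure the spread between these libraries only.

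A miRNA is a small RNA cut from a hairpin, first in the nucleus by Drosha and then in the cytoplasm by Dicer, and it guides an Argonaute protein to matching messenger RNAs mainly through its seed, bases 2 to 8. Each hairpin can give a product from its 5′ side (5p) and from its 3′ side (3p), of which usually one is kept. miRBase numbers follow the order of deposition, so miRNAs with high numbers were mostly found by deep sequencing after the abundant and conserved families had been named. Several kinds of hairpin are known among late entries, such as mirtrons, whose ends are made by splicing of a short intron, hairpins cut from small nucleolar RNAs, and hairpins read from the opposite strand of an older miRNA.

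The 6 members with the highest mean level are shown first, because they carried most of the reads; capitals mark the seed.
miR-3068-5p: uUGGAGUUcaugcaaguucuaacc
miR-3071-3p: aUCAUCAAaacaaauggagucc
miR-3072-3p: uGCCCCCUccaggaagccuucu
miR-3099-3p: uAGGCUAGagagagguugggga
miR-3074-2-3p: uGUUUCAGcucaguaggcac
miR-3102-5p.2-5p: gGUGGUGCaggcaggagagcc
These 6 had 6 different seeds. Over all 121 members there were 118 seeds, and 4 members had the seed of a miRNA numbered under 1000 or of let-7. The most abundant of the 4 was miR-3473d, with 117 reads over the 9 libraries and the seed of miR-674-5p. Within the members, miR-3085-3p (1671 reads) and miR-3064-5p (178 reads) shared a seed, as the capitals show.
miR-3085-3p: uCUGGCUGcuauggcccccuc
miR-3064-5p: uCUGGCUGuuguggugugcaaa

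The libraries held 10119758 to 11457656 reads on listed miRNAs. One read was one short RNA read whole, so no correction for length was needed to compare levels between miRNAs. Levels are CPM, counts scaled to a library total of 1000000 after TMM scaling of the totals (factors of 0.914 to 1.19, the highest in LPS replicate 2). Markers of the hippocampus and its neighbouring tissues were looked up as a check of the label. All 5 neuronal miRNAs of the list, miR-124-3p, miR-9-5p, miR-9-3p, miR-128-3p and miR-138-5p, had reads in every library, and their summed level was 99355 to 140854 CPM. The 9 miRNAs of choroid plexus and ependyma also had reads in every library. Their sum ranged from 9517 CPM in LPS replicate 3 to 53573 CPM in LPS + GAS replicate 1, so it was uneven between libraries. Most of it was miR-204-5p, with a mean of 19220 CPM over the 9 libraries. The 4 leukocyte miRNAs summed to 2569 to 6226 CPM and the 4 vessel miRNAs to 16406 to 22892 CPM, and both lists overlapped between all groups. The leukocyte sum was almost all miR-150-5p, with a mean of 4794 CPM. The means of miR-142a-3p, miR-142a-5p and miR-223-3p were 14.6, 13.6 and 8.39 CPM. In such bulk tissue, fewer cells of a type and less RNA per cell cannot be told apart.

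The members were far less abundant than the miRNAs named earlier. Their median level over the 9 libraries was 0.243 CPM, against 6.62 CPM for the miRNAs numbered under 1000. The 619 other rows had a still lower median, 0.0767 CPM. Together the members took 0.110% to 0.164% of the reads of a library, while the miRNAs numbered under 1000 took 71.5% to 78.8%. With let-7, which by its name counts among the other rows, the latter took 99.2% to 99.6%. The mean share of the members was 0.131% ± 0.018 in saline, 0.134% ± 0.027 in LPS and 0.116% ± 0.006 in LPS + GAS (SD, n = 3 each). The 3 groups overlapped. Of the 121 members, 2 exceeded 100 CPM (1.65%), compared with 162 of 708 (22.9%).

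**Figure D1:**
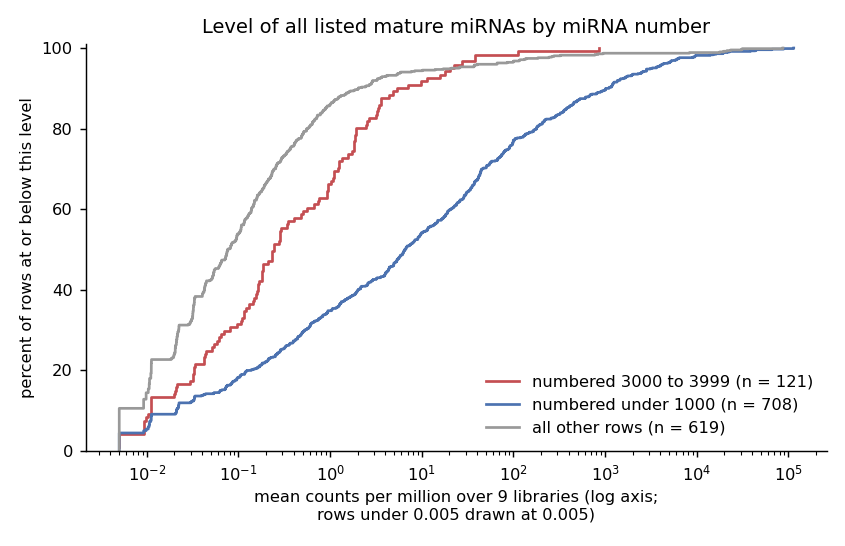
Cumulative share of miRNA rows (vertical axis, percent) at or below a mean level over the 9 libraries (horizontal axis, CPM, log axis), for the 121 members, the 708 miRNAs numbered under 1000 and the 619 other rows. The curve of the members lies to the left of that of the miRNAs numbered under 1000, with medians of 0.243 and 6.62 CPM.

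Detection followed the level. In 58 of 121 members (47.9%) every library had at least 1 read, in 58 only some libraries had reads, and 5 had none: miR-3095-5p, miR-3108-5p, miR-3473e, miR-3569-3p and miR-3620-3p. With 94579964 reads in all, 0 reads allows a level of up to 0.0317 CPM (3 reads; counting error only). Among the miRNAs numbered under 1000, 529 of 708 (74.7%) were read in every library and 31 (4.38%) in none. Among listed rows, a complete lack of reads was thus about as frequent in both classes, and incomplete detection was more frequent in the members. Products that are not listed do not enter these shares, and 29 of the 75 member hairpins had only 1 row. A single library showed 83 to 91 members with at least 1 read and 38 to 45 with at least 10. The filter used for tests, at least 10 reads in at least 3 libraries, kept 47 members (38.8%) and 476 of 708 (67.2%). At its edge, miR-3093-5p and miR-3552 passed with 10 reads in 3 libraries, and miR-3082-3p did not, with 10 reads in 2. The 74 members left out had a median of 8.5 reads over the 9 libraries. In 0 of the 26 members with a median of at least 20 reads did any library fall under that median divided by 20.

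One miRNA dominated the class. miR-3068-5p had 9517, 10605 and 8397 reads in saline, 8531, 12016 and 7572 in LPS, and 9356, 8316 and 7568 in LPS + GAS. That was 65.4% to 72.6% of all reads on members in each library. Its level was 898 ± 46.8 CPM in saline, 870 ± 120 in LPS and 814 ± 75.7 in LPS + GAS (SD, n = 3), and the 3 groups overlapped. The second, miR-3071-3p, lay at 112 CPM on average. The next in order, miR-3072-3p (38.5 CPM) and miR-3099-3p (37.6 CPM), did not differ beyond their spread: miR-3099-3p ranged from 177 to 562 reads and miR-3072-3p from 250 to 560. The 12 most abundant members together held 93.4% of the members' reads. Leaving miR-3068-5p aside, the class took 0.043% ± 0.006 of reads in saline, 0.042% ± 0.003 in LPS and 0.036% ± 0.002 in LPS + GAS. The LPS + GAS libraries (0.0351% to 0.0382%) then lay just below the LPS libraries (0.0385% to 0.0449%). Saline (0.0370% to 0.0498%) overlapped both, and these shares were not tested.

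**Figure D2:**
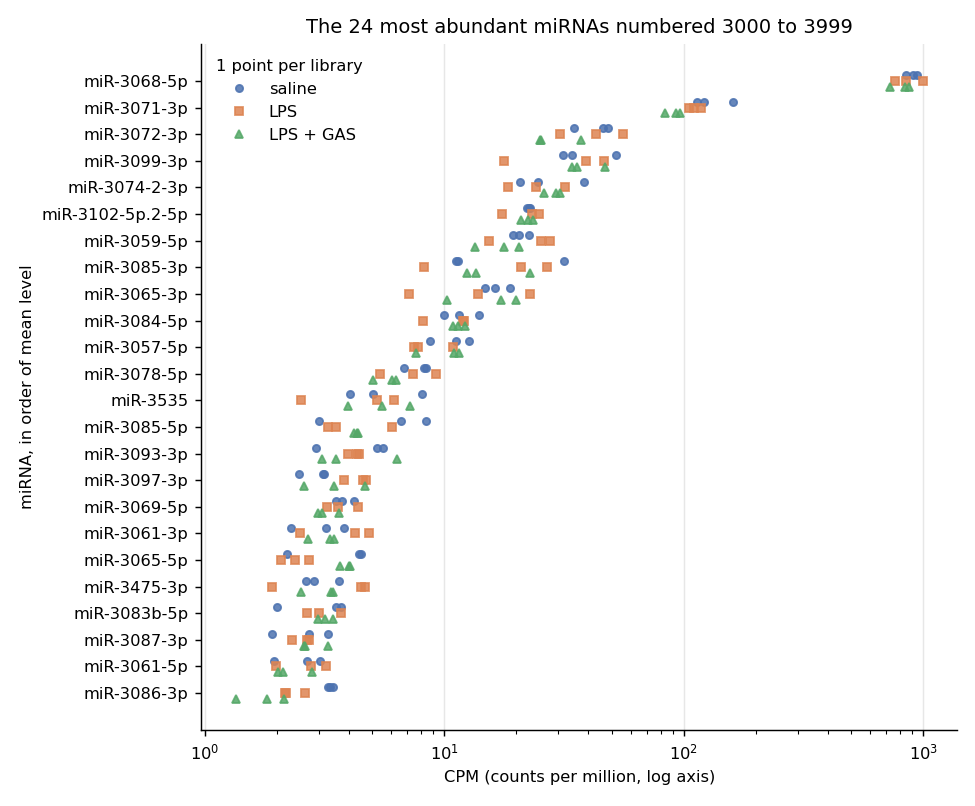
Level (horizontal axis, CPM, log axis) of the 24 most abundant members in each of the 9 libraries, with saline as circles, LPS as squares and LPS + GAS as triangles, 1 point per library. miR-3068-5p stands alone near the right edge, the second member lies at 112 CPM, and in most rows the points of the 3 groups intermingle.

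The leading member comes from an unusual locus. Its hairpin lies on the minus strand of mouse chromosome 12 (GRCm38.p6, chr12:87437679-87437757). GENCODE M21 gives the gene Mir3068 itself the type small nucleolar RNA, and places an exon of the lincRNA Gm29362 and an intron of Alkbh1 over it, which encodes a demethylase of nucleic acids. The deposited hairpin is shown because both of its arms were read; capitals mark the 5p arm, then the 3p arm.
mir-3068: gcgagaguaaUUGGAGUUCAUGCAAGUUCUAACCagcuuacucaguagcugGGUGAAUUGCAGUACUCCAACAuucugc
Overlap with an entry typed as small nucleolar or Cajal body RNA, its own entry included, was found for 3 of the 64 placed member hairpins. It was found for 2 of 314 hairpins of miRNAs numbered under 1000 and for 5 of 329 other hairpins. The other 2 members were mir-3535 and mir-3069. The mir-3535 hairpin is itself entered as the small nucleolar RNA Gm24148, within Ncl, the gene of the nucleolar protein nucleolin. mir-3069 lies in Scarna13, a guide RNA of Cajal bodies within the lincRNA Snhg10. Of the 3, only mir-3069 thus overlapped an entry of this kind other than its own. miR-3535 had 85, 57 and 40 reads in saline, 62, 63 and 25 in LPS, and 59, 71 and 41 in LPS + GAS, and miR-3069-5p had 31 to 44 reads in every library.

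Another group sits in the imprinted region of chromosome 12 between Dlk1 and Dio3, which is known for a large cluster of miRNAs expressed in brain. Of its 9 placed member rows, 4 passed the filter: miR-3071-3p, miR-3072-3p, miR-3544-5p and miR-3070-2-3p. mir-3071 (chr12:109595318-109595397, minus strand) lies in the exon of Rtl1, a retrotransposon-derived gene with a role in the placenta and on the same strand, and mir-3072 (chr12:109747878-109747960, plus strand) lies in an exon of the lincRNA Mirg. miR-3072-3p had 482, 545 and 346 reads in saline, 560, 367 and 429 in LPS, and 269, 250 and 388 in LPS + GAS. Of the LPS + GAS libraries, the one with 388 reads lay within the range of both other groups and the others lay below both. miR-3070-2-3p (98 reads) and miR-3070-3p (27 reads) share a seed. Whether reads were exchanged between them was not tested.

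The 3′ ends of some members lay exactly at a splice site. Of 47 placed 3p rows of members, 9 (19.1%) had their last base at the last base of an intron of a GENCODE M21 transcript. This held for 0 of 265 placed 3p rows numbered under 1000 and for 123 of 244 other 3p rows (50.4%). All 9 sequences end in AG, the pair of bases with which introns close. The 4 that passed the filter are shown, with the last 3 bases in capitals.
miR-3097-3p: cucagaccuuucuaccuguCAG
miR-3076-3p: cgcacucuggucuucccuugCAG
miR-3077-3p: cugacucccugcuucuccgCAG
miR-3572-3p: uacacuuguccuucuuucccCAG
miR-3097-3p (chr5:35021094-35021115, plus strand) lies in Rgs12, a regulator of G-protein signalling, and miR-3076-3p in Tkt, the gene of transketolase. miR-3077-3p lies in Sap18, part of a histone deacetylase complex, and miR-3572-3p in Cnot3, a subunit of the CCR4-NOT deadenylase. Only the 3′ end was matched here. The 5′ end of the hairpin lay 642 bases from the start of the intron for mir-3097 and 903 for mir-3076. It lay 69 bases away for mir-3077 and 9 for mir-3572. Over the 9 rows this distance ranged from 0 (mir-3547) to 1811 bases (mir-3094). Whether any of them is a mirtron was not tested. The 9 rows held 1 to 343 reads each over the 9 libraries, 0.664% of the members' reads. Where the 5p arm was listed as well, the 3p arm had more reads in 5 of 7 hairpins, and the largest of these differences was 343 against 15 reads for mir-3097.

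Several members are read from the strand opposite to another miRNA. Of the 75 member hairpins, 7 (9.33%) shared a run of at least 20 bases with the reverse complement of another listed hairpin, 5 with one numbered under 1000 and 2 with each other. The same search found a partner for 37 of 404 hairpins numbered under 1000 (9.16%), which was a member for 5 of them, and not every such pair could be placed. The partners were mir-136 for mir-3071, mir-24-1 and mir-24-2 for mir-3074-1 and mir-3074-2, mir-338 for mir-3065, mir-337 for mir-3544, and mir-3083b for mir-3083, which are both members. The hairpins of a pair overlapped by 57 to 87 bases. The mature products are therefore nearly complementary, as 3 pairs show; capitals mark the run that pairs without a mismatch.
miR-3071-3p: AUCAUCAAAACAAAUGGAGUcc
miR-136-5p: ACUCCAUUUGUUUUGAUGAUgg
miR-3065-5p: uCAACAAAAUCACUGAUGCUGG
miR-338-3p: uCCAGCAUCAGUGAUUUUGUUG
miR-3074-2-3p: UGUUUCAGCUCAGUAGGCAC
miR-24-2-5p: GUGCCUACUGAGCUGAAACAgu
These runs were 20, 21 and 20 bases long.

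The older miRNA had more reads than the member in all 9 libraries in each of the 9 such mature pairs with a partner numbered under 1000. The distance varied widely. miR-136-5p had 46011 reads over the 9 libraries and miR-3071-3p had 10596, a ratio of 4.34, and miR-24-2-5p (7803 reads) exceeded miR-3074-2-3p (2568 reads) 3.04-fold. miR-338-3p, an abundant miRNA of oligodendrocytes, had 78488 reads and miR-3065-5p 316, a ratio of 248. miR-337-3p (2251 reads) exceeded miR-3544-5p (106 reads) 21.2-fold. By hairpin, mir-3074-1 held 0.0290% of the reads of its locus, and there miR-24-3p, which both mir-24 hairpins produce, is listed once in the table. The sources used here do not state whether reads were counted by strand, so the reads of each member and its partner could have been exchanged in part.

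The leading arm held a smaller share of the reads in the member hairpins than in the older hairpins, a description with no test. Both arms were listed in 45 of the 75 member hairpins, and both had reads in 43. 29 hairpins had 1 row, and 1 hairpin had another layout. The 5p arm had more reads in 21 and the 3p arm in 24 of the 45. Among hairpins with at least 100 reads in all, the leading arm held a median of 89.2% of the reads in 24 member hairpins and 97.9% in 267 hairpins numbered under 1000. Among those with 100 to 5000 reads, which brings the levels of both classes closer together, the medians were 86.5% (n = 22) and 95.2% (n = 106). The leading arm was the same in all 9 libraries in 21 of the 24 (87.5%) and in 242 of the 267 (90.6%).

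**Figure D3:**
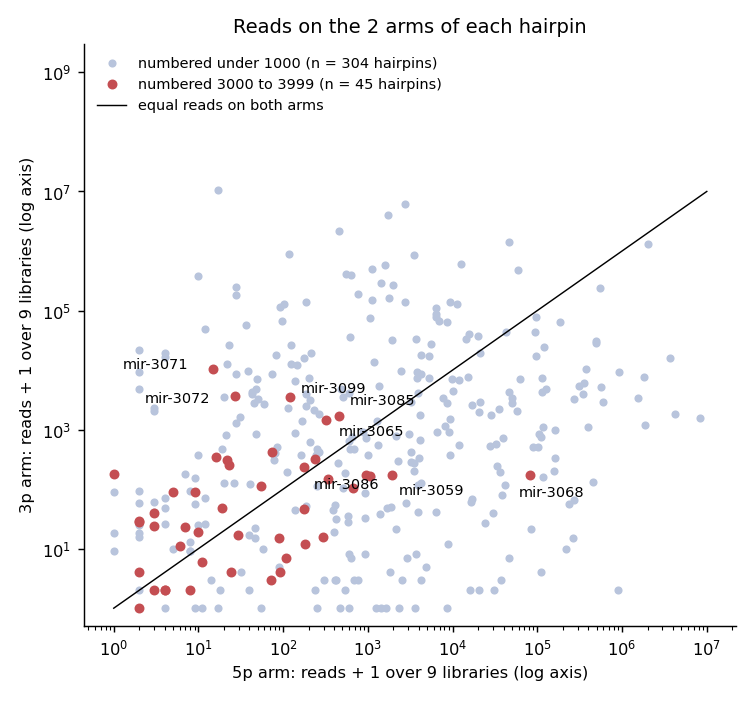
Reads on the 5p arm (horizontal axis) and on the 3p arm (vertical axis) over the 9 libraries, plus 1, on log axes, for 45 member hairpins and 304 hairpins numbered under 1000 with both arms listed and reads on at least 1 of them; the line marks equal reads. mir-3068 lies far on the 5p side with 81878 against 171 reads, mir-3071 and mir-3072 lie on the 3p side, and mir-3086 is close to the line.

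Arm balance ranged from one-sided to near even. mir-3068 gave 81878 reads of 5p and 171 of 3p, and its log2 ratio of 5p to 3p stayed between 8.60 and 9.16 over the 9 libraries. mir-3071 gave 10596 reads of 3p and 14 of 5p, and mir-3072 gave 3636 and 26. mir-3059 leaned to the 5p arm, with 91.7% of its reads there, and mir-3099 to the 3p arm, with 96.8%. At the even end, mir-3086 had 177 reads of 5p and 235 of 3p, with more 5p reads in 2 libraries and more 3p reads in 7. mir-3061, which lies in an exon of Ppp2ca, the catalytic subunit of protein phosphatase 2A, had 236 and 318 reads, and mir-3069 favoured the 5p arm with log2 ratios of only 0.86 to 1.54.

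In sequence the members differed modestly from the older miRNAs. The median length was 22 bases in both. A first base of U was found in 55 of 121 members (45.5%) and 251 of 708 rows numbered under 1000 (35.5%), and the median GC content was 52.4% and 45.6%. Of the 64 placed member hairpins, 30 lay only in introns of a gene on the same strand (46.9%), against 35.7% of those numbered under 1000, and 16 had no gene on the same strand (25.0%, against 40.1%). The 619 other rows differed from the older miRNAs in the same directions, and further. They began with U in 48.0% and had a median GC content of 56.5%. Their placed hairpins lay only in introns in 64.7%, and 9.42% had no gene on the same strand. These are descriptions of the lists, with no test.

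No member was called between saline and LPS, the comparison that asks for the effect of LPS. In edgeR's quasi-likelihood test, a miRNA was called where its Benjamini-Hochberg adjusted p did not exceed 0.05 and its log2 fold change was 1 or more in size. In it, 0 of 47 members were called, and 0% of the 628 tested miRNAs. DESeq2 and limma-voom also called 0 members. At an unadjusted p under 0.05 there were 2 members (4.26%), compared with 2.39% of all tested miRNAs, and in 3 members the libraries of the groups did not overlap (6.38%), compared with 3.82%. No member reached a log2 fold change of 1 in size (1.27% of all did). The median log2 fold change of the 47 was -0.083, with a range from -0.64 to 0.85, and that of all tested miRNAs was -0.045. Without LPS replicate 2 the members' median was 0.024. The lowest adjusted p among the members was 0.992 in edgeR.

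The members with the lowest p were small in count. miR-3097-3p, the intron-end product of Rgs12, had 3.15, 2.48 and 3.12 CPM in saline and 4.58, 4.73 and 3.82 CPM in LPS. All 3 LPS libraries lay above all 3 saline libraries, with a log2 fold change of 0.59 ± 0.26 (SE; edgeR adjusted p = 0.992). With LPS + GAS the values were 3.45, 4.65 and 2.6 CPM, which overlapped both groups. miR-3093-5p did not overlap either, with 0.573, 0.619 and 0.403 CPM in saline and 0.896, 0.831 and 1.21 CPM in LPS, that is 4 to 7 and 9 to 12 reads. miR-3086-3p, the other member at an unadjusted p under 0.05, was lower in LPS than in saline without overlap, at 2.16 to 2.61 against 3.27 to 3.43 CPM (-0.53 ± 0.23 on the log2 scale, SE; edgeR adjusted p = 0.992). miR-3065-5p, next by p, overlapped between these groups (-0.64 ± 0.29). All of these differences failed the correction. An exact permutation test of 3 against 3 libraries cannot give a p under 0.1.

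**Figure D4:**
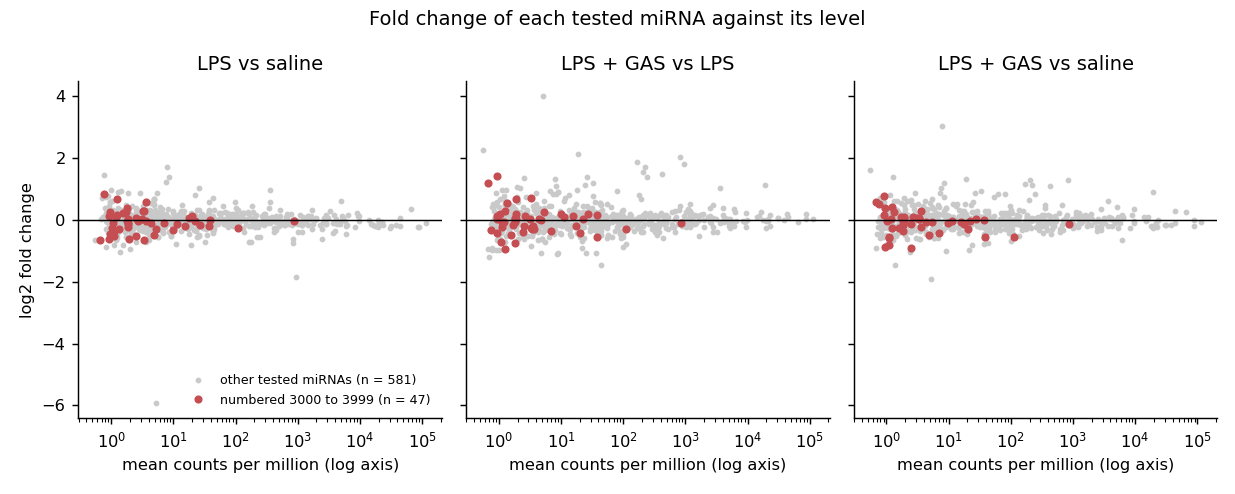
Log2 fold change (vertical axis) against mean level (horizontal axis, CPM, log axis) for the 47 tested members and the other 581 tested miRNAs in the 3 comparisons, 1 point per miRNA. The members lie within the cloud of the other miRNAs, and those furthest from 0 are at the low end of the level axis.

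LPS + GAS against LPS, the comparison that asks for the effect of GAS on LPS-treated mice, called 0 of 47 members in edgeR, DESeq2 and limma-voom, and edgeR called 0% of all 628. At an unadjusted p under 0.05 there were 2 members (4.26%, against 3.66% of all), and 5 did not overlap between groups (10.6%, against 8.60%). The median log2 fold change of the members was -0.0050, within a range of -0.94 to 1.42, against 0.0030 for all tested miRNAs; without LPS replicate 3 it was -0.12. The lowest adjusted p among the members was 0.903.

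miR-3065-5p showed the lowest p. It had 4.39, 4.51 and 2.22 CPM in saline, 2.39, 2.08 and 2.72 CPM in LPS, and 4.01, 4.05 and 3.66 CPM in LPS + GAS. The LPS + GAS libraries were all above the LPS libraries, with a log2 fold change of 0.71 ± 0.29 (SE; edgeR adjusted p = 0.903), whereas 1 of the 3 saline libraries lay within the LPS range (-0.64 ± 0.29 for LPS against saline). Its partner on the opposite strand, miR-338-3p, stood at 974 ± 336, 639 ± 208 and 878 ± 220 CPM (SD, n = 3) in saline, LPS and LPS + GAS, with log2 fold changes of -0.61 and 0.46 for the same 2 comparisons. The summed level of the oligodendrocyte list, miR-219a-2-3p and miR-338-3p, was 2738 to 4553 CPM in saline, 1382 to 3494 CPM in LPS and 2364 to 4308 CPM in LPS + GAS. The part of either in the values of miR-3065-5p was not tested. The other arm, miR-3065-3p, had 13.8, 7.14 and 22.8 CPM in LPS, which spanned all the values of LPS + GAS.

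miR-3099-5p, the minor arm of a hairpin in an intron of Usp29, a paternally expressed gene, had lower values in LPS + GAS than in LPS. It had 0.669, 0.796 and 1.81 CPM in saline, 1.69, 1.99 and 1.51 CPM in LPS, and 1.21, 0.809 and 0.674 CPM in LPS + GAS. The LPS + GAS libraries lay below the LPS libraries, with a log2 fold change of -0.94 ± 0.41 (SE; edgeR adjusted p = 0.903), and the saline libraries spread over both. miR-3072-3p, next by p, overlapped between these groups (-0.56 ± 0.27).

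The 2 largest log2 fold changes among the members in this comparison came with libraries of 1 group that lay far apart. They were the only members at a log2 fold change of 1 or more in size (4.26%, against 4.62% of all tested miRNAs). miR-3105-5p, from an intron of Shank2, a postsynaptic scaffold gene, had 12, 5 and 9 reads in saline, 10, 6 and 1 in LPS, and 25, 3 and 17 in LPS + GAS. miR-3552, from an intron of the serotonin receptor gene Htr2c, had 6, 3 and 11 reads, then 7, 4 and 2, then 18, 1 and 11. In both, LPS + GAS replicates 1 and 3 were the highest of their group and replicate 2 was near the lowest of all. The 4 libraries with the most reads of miR-3105-5p were also the 4 with the highest sum of the choroid plexus and ependyma list. In these same 4 libraries miR-3552 had 18, 11, 7 and 6 reads, the 6 in saline replicate 1 at a sum of 28036 CPM. It also had 11 reads in saline replicate 3, at a sum of 10736 CPM, and 1 to 4 reads in the remaining libraries. The sum of this list, most of it miR-204-5p, stood at 28036, 9637 and 10736 CPM in saline, 21569, 10051 and 9517 CPM in LPS, and 53573, 12494 and 24606 CPM in LPS + GAS. Its part in the values of both miRNAs was not tested. The fold changes were 1.42 ± 0.76 and 1.21 ± 0.82 on the log2 scale (SE; edgeR adjusted p = 0.903 for both).

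LPS + GAS against saline called 0 of 47 members in edgeR, DESeq2 and limma-voom. edgeR called 1 of 628 tested miRNAs (0.159%), miR-21a-3p, which is no member. At an unadjusted p under 0.05 there were 3 members, all lower in LPS + GAS (6.38%), against 3.34% of all in either direction and 1.91% lower. The groups did not overlap in 4 members, again all lower in LPS + GAS (8.51%), against 7.32% of all in either direction and 4.78% lower. Lower values in LPS + GAS were also the more frequent direction over all tested miRNAs, with 12 of the 21 at an unadjusted p under 0.05 and 30 of the 46 without overlap. No member reached a log2 fold change of 1 in size (2.39% of all did). The median of the members was -0.049, from -0.91 to 0.79, and that of all tested miRNAs -0.028. This comparison shares its groups with the other two. The red blood cell list (miR-451a, miR-144-3p, miR-144-5p and miR-486a-5p, all with reads in every library) summed to 4541 to 6174 CPM in LPS + GAS, above the 2024 to 4267 CPM of saline and the 2149 to 3241 CPM of LPS. It thus moved with the LPS + GAS group in both comparisons that use it, and its part in the members' values was not tested.

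miR-3086-3p had the lowest p of the members. Its hairpin lies in an intron of Hspa12a, a distant relative of the HSP70 chaperones (chr19:58911673-58911759, minus strand). It had 3.34, 3.27 and 3.43 CPM in saline, 2.19, 2.16 and 2.61 CPM in LPS, and 2.15, 1.82 and 1.35 CPM in LPS + GAS. No 2 of the 3 groups overlapped, with saline highest and LPS + GAS lowest, although the nearest values of LPS and LPS + GAS were 2.16 and 2.15 CPM. The log2 fold change was -0.91 ± 0.24 for LPS + GAS against saline (SE; edgeR adjusted p = 0.728), -0.53 ± 0.23 for LPS against saline and -0.38 ± 0.24 for LPS + GAS against LPS. The counts behind it were 34 to 37, 22 to 26 and 14 to 23 reads, and the difference failed the correction in each comparison. The other arm, miR-3086-5p, had 14 to 27 reads in saline, 15 to 23 in LPS and 18 to 22 in LPS + GAS, and these overlapped throughout.

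The other three members without overlap ran at different levels. miR-3071-3p, the second most abundant member, had 114, 161 and 122 CPM in saline, 111, 105 and 118 CPM in LPS, and 83.9, 92.8 and 96.3 CPM in LPS + GAS. All 3 LPS + GAS libraries were below all 6 others, by -0.54 ± 0.18 on the log2 scale against saline (SE; edgeR adjusted p = 0.998) and -0.29 ± 0.18 against LPS. Its partners on the opposite strand, miR-136-5p and miR-136-3p, gave -0.15 ± 0.15 and -0.25 ± 0.22 against saline. miR-3572-3p, the intron-end product of Cnot3, had 0.955, 1.5 and 1.31 CPM in saline, 0.995, 0.831 and 0.905 CPM in LPS, and 0.653, 0.607 and 0.771 CPM in LPS + GAS, with -0.88 ± 0.32 against saline (SE; edgeR adjusted p = 0.998). These values stand for 6 to 17 reads per library. miR-3078-5p had 6.78, 8.22 and 8.36 CPM in saline and 5.04, 6.27 and 6.07 CPM in LPS + GAS, with a log2 fold change of -0.43 ± 0.24, and its LPS values of 9.25, 5.4 and 7.44 CPM overlapped both.

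**Figure D5:**
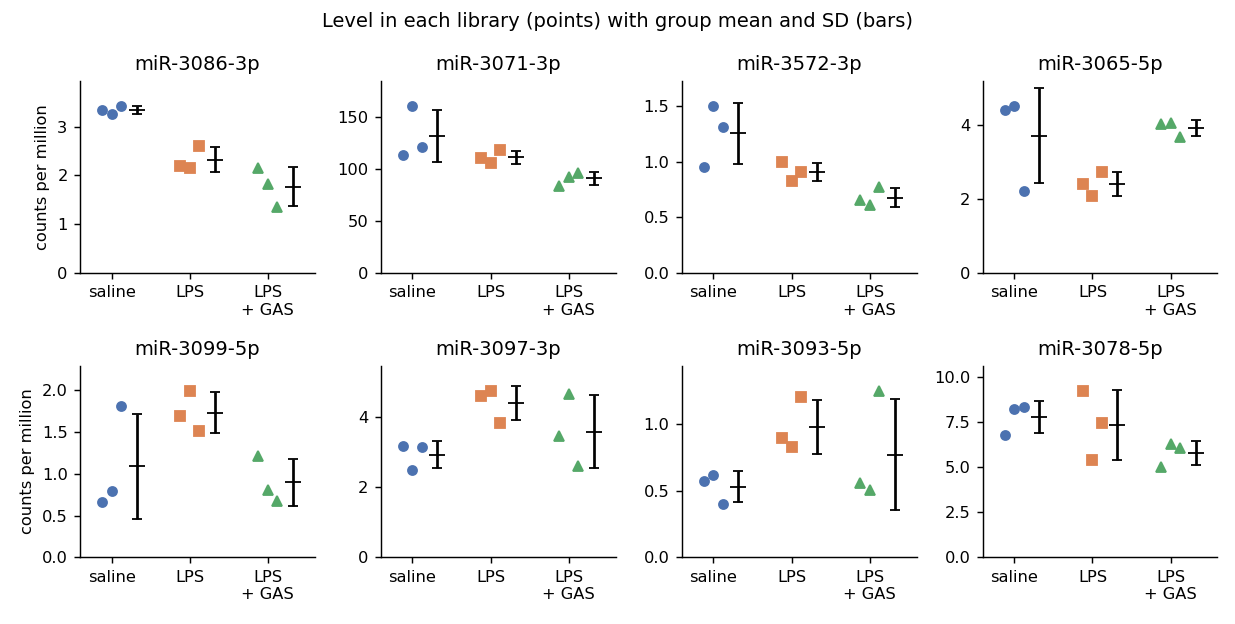
CPM (vertical axes, from 0) of 8 members in each library of the saline, LPS and LPS + GAS groups, 1 point per library, with bars for the group mean and SD (n = 3). Shown are the members whose groups do not overlap in at least 1 comparison; miR-3086-3p lies at 3.27 to 3.43 CPM in saline and at 1.35 to 2.15 CPM in LPS + GAS, and none of the 8 passed the adjusted test.

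The ratio of the 5p to the 3p arm was tested in the 12 member hairpins in which both arms passed the filter. 0 of the 12 were called in any of the 3 comparisons by limma at an adjusted p of at most 0.05. Over all 202 tested hairpins, 0.495% were called in LPS against saline, 0% in LPS + GAS against LPS and 0.495% in LPS + GAS against saline, and the 1 hairpin called was mir-21a both times. At an unadjusted p under 0.05 the member hairpins numbered 0, 1 and 1, against 2.48%, 4.46% and 4.46% of all hairpins. The 1 in LPS + GAS against LPS was mir-3099, whose log2 ratio of 5p to 3p was -4.18 ± 0.57 in LPS and -5.39 ± 0.63 in LPS + GAS (SD, n = 3), a difference of -1.21 ± 0.46 (SE; limma adjusted p = 0.867). Its minor arm, miR-3099-5p, had only 7 to 24 reads per library. Its major arm, miR-3099-3p, had 393, 562 and 177 reads in LPS and 367, 354 and 488 in LPS + GAS. The 1 in LPS + GAS against saline was mir-3086, at -0.93 ± 0.53 in saline and 0.15 ± 0.49 in LPS + GAS, a difference of 1.08 ± 0.37 (SE; limma adjusted p = 0.881).

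At like levels, the errors of the members and of the older miRNAs were of similar size. Between 3 and 10 CPM, the median SE of the log2 fold change for LPS against saline was 0.29 in 11 members and 0.30 in 82 miRNAs numbered under 1000. Between 10 and 100 CPM it was 0.27 in 8 members and 0.24 in 163. In the members at 1 to 3 CPM it was 0.33 (n = 20), against 0.37 (n = 55).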

How the data were processed

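Small RNA of mouse hippocampus was sequenced on a BGI platform, with 3 libraries per group. The authors deposited a table of read counts per mature miRNA, not normalized, with mature and hairpin sequences. It also holds exp values, whole numbers scored at or below the read counts, made in a way not given in the sources, and the authors' comparisons (log2 fold changes, p-values and q-values from DESeq2), which were not used. The build in the submitters' processing notes is GRCm38.p6. 0 columns with a value per library belonged to no mapped sample.

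edgeR 4.0.16 in R 4.3.3 was used on the counts of the 628 of 1448 miRNAs that had 10 or more reads in 3 or more libraries, with TMM factors, a mean per group over all 9 libraries (glmQLFit), and glmQLFTest with Benjamini-Hochberg adjustment over the 628. The SE given with an edgeR log2 fold change is its size divided by the square root of the F statistic of that test. It is therefore derived from the test, and at low counts the p-value can be larger than this SE implies. Log2 ratios of the arms (0.5 reads added) were tested with limma 3.58.1 over 202 hairpins. The steps were tested on simulated data. Sequences are the deposited ones. Coordinates come from a RefSeq table of GRCm38.p6, in which 101 of 121 members were placed (109 matched by name and sequence), and gene features from GENCODE M21. Overlap between groups was judged on CPM.

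Named were the 12 members with the highest mean CPM, and, per comparison, those called, those without overlap and the 3 with the lowest p. Also named were both arms of hairpins whose arms were both tested, members with a partner on the opposite strand, members with the seed of an older miRNA, members with 1 library far under the rest, and members without reads. The members, marker lists and this rule were chosen with earlier results of these data known. The groups of hairpins by origin were chosen after their places were seen.

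In LPS + GAS against saline, the deviations of libraries with the same number were correlated (r of 0.296, 0.329 and 0.370 over the tested miRNAs). This pairing rests on the correlations alone. In the other comparisons at least one correlation was negative. Alternatives were DESeq2 size factors, the DESeq2 1.42.0 Wald test, limma-voom, other filters, the replicate block, 2 groups only, exp values and each library left out.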

Additional observations from a re-analysis of the deposited data

How the results depend on the processing

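No member was called in any of the 54 combinations of a setting and a comparison, and 0 member hairpins changed their arm ratio in any of 48 such combinations. All 322 refits of the fold changes of single miRNAs that are printed or had no overlap between groups, and all 30 of the arm ratio differences printed for mir-3099 and mir-3086 kept their direction, and none passed the threshold. With the replicate number as a block, 0, 0 and 0 members and 0, 0 and 1 of all miRNAs were called in LPS against saline, LPS + GAS against LPS and LPS + GAS against saline, and 2, 0 and 1 hairpins changed their arm ratio, against 1, 0 and 1 without the block; no other call changed. Over all miRNAs, LPS against saline called 2 with no filter on low counts, 1 by DESeq2, and 0 to 1 when a library was left out (1 without LPS replicate 2 or LPS + GAS replicate 3). LPS + GAS against LPS called 0 to 1 when a library was left out (1 without LPS replicate 2). edgeR's diffSpliceDGE called 3 hairpins in LPS against saline. The cause was not tested.

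The median log2 fold change of the members was 0.017 in LPS against saline and 0.044 in LPS + GAS against saline with no filter, where more members enter. When a library was left out it ranged from -0.15 to 0.024 in LPS against saline and from -0.12 to -0.0024 in LPS + GAS against LPS. With at least 50 reads in 3 libraries 15 members passed, and 116 had at least 1 read in any library. With at least 10 reads, 38 to 45 members were detected per library. Exp values put the members' share at 0.307%, 0.30% and 0.270% in saline, LPS and LPS + GAS, since the exp values of the whole table summed to 0.399 to 0.446 of the read counts and those of the members to 0.948 to 0.967. On read counts without miR-3068-5p the shares were 0.0429%, 0.0418% and 0.0363%. Depth limits the 74 members left out of the tests, which had a median of 8.5 reads over the 9 libraries together.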
